A study of Mus musculus with 2 samples.

Results

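Expression of 9 genes of cell cycle arrest was examined in a murine three-dimensional skin model. They were the cyclin-dependent kinase (CDK) inhibitor genes Cdkn1a, Cdkn1b, Cdkn1c, Cdkn2a, Cdkn2b and Cdkn2c, the tumour suppressor gene Trp53, its ubiquitin ligase gene Mdm2, and Lmnb1, the gene of lamin B1. The genes were chosen by name, with earlier results of these data known. Their probe sets are those that the platform annotation pairs with exactly 1 of these symbols. Of the 9 genes, 8 had such a probe set, 1 each, among 22180 genes named in this way. Trp53 had none and was not analysed here.

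RNA was profiled on 1 array from a model of Itih5 knockout cells and 1 array from a model of wildtype cells, both marked as day 7 in their titles. Itih5 encodes an inter-alpha-trypsin inhibitor heavy chain, and the series concerns it as a stabilizer of hyaluronan in skin. Both models combined epidermal keratinocytes and dermal fibroblasts grown from the skin of untreated adult mice, the fibroblasts in medium with 20% fetal calf serum. The cultures of both genotypes were passaged in series, and the labels report that after about 9 population doublings the cells no longer needed collagen support and showed no apparent proliferative crisis. The sources used here do not give the strain, how the knockout allele was made, the number of mice behind each model or the passage of each culture. Itih5 itself read 30.4 in the knockout model against 29.8 in the wildtype on its 1 probe set, below the expression threshold in both, and so did not check the labels.

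The CDK inhibitors act as brakes on the cell cycle. Proteins of the Cip/Kip family (Cdkn1a, Cdkn1b and Cdkn1c) bind whole cyclin-CDK complexes, whereas the Ink4 proteins bind Cdk4 and Cdk6 and keep them from their D-type cyclins, so that the Rb proteins go on repressing E2F target genes. p53 is a transcription factor that activates Cdkn1a and also Mdm2, whose product marks p53 for degradation. In cultured mouse cells the products of Cdkn2a are known to accumulate with passage, and loss of lamin B1 is a widely used sign of senescence. In the epidermis, Cip/Kip proteins are known to rise as keratinocytes leave the cycle to differentiate.

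Values are array intensities on a linear scale, in arbitrary units. Their decimal point was missing in the deposited table, and each value was therefore restored from its possible places. A gene was called restored if 1 pair of places, for both arrays together, had a probability of at least 0.95, and undecided otherwise. Every difference is the log2 intensity in the knockout model minus that in the wildtype. A gene counted as expressed if its higher intensity reached 46.5, the median of all restored values. With 1 array per model there was no replicate error and no test, and a difference of at least 2-fold is a size, not a statistical call. Intensities of different probe sets are not compared with each other.

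Among the members, Cdkn2a was the gene at least 2-fold apart, higher in the knockout model, and none was at least 2-fold lower. The 7 restored members were all expressed, and 6 of them were under 2-fold. As background, 3.81% of all 12719 expressed genes reached 2-fold in the higher direction and 3.31% in the lower. Cdkn1a, the eighth gene with a probe set, was undecided. The median difference of the 7 restored members was 0.04, the same as the median of 0.04 over all expressed genes. Of the 7, 4 read above 0 (Cdkn2a, Cdkn2b, Cdkn1c and Cdkn2c) and 3 below 0 (Cdkn1b, Lmnb1 and Mdm2). At least 1.5-fold apart were 3 of 7, Cdkn2a, Cdkn2b and Cdkn1b, against 19.8% of all expressed genes.

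**Figure D1:**
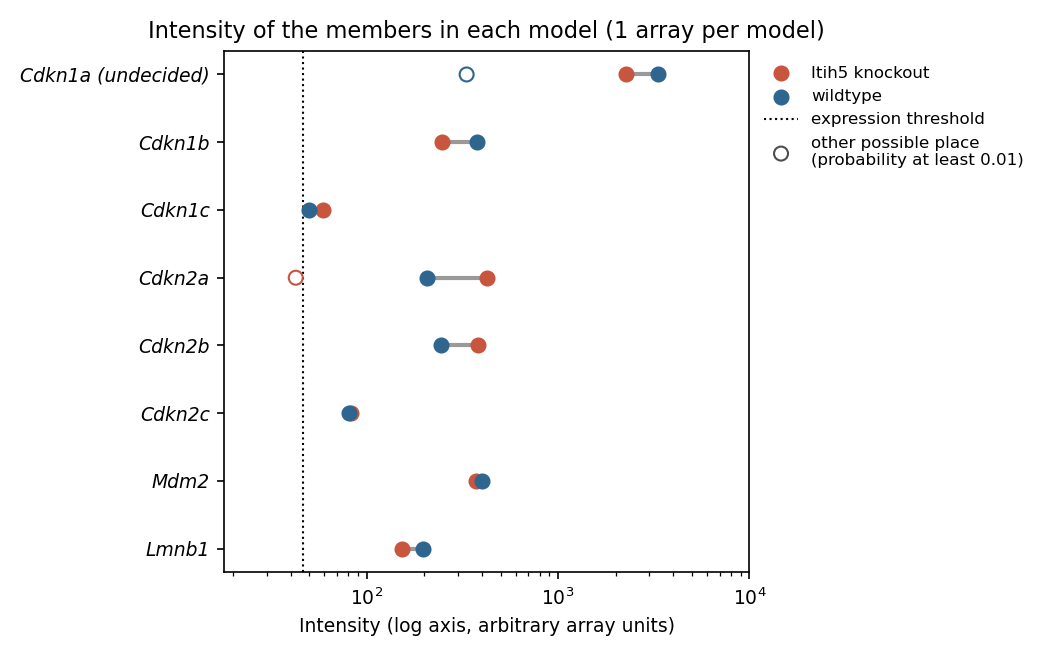
Intensity of each member with a probe set in the knockout (red) and wildtype (blue) model, on a log axis in arbitrary units, with 1 array per model and no error bars. Filled points are the likeliest places of the decimal point, open points are other places with a probability of at least 0.01, and the dotted line is the expression threshold of 46.5. For Cdkn2a and Cdkn1a an open point lies on the far side of the other model, so their direction depends on the place of the point.

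In the Cip/Kip family the restored genes Cdkn1b and Cdkn1c read in opposite directions, and Cdkn1a was undecided. Cdkn1b, which encodes p27, an inhibitor of cells at rest, read 248 in the knockout model against 377 in the wildtype. This was 1.52-fold lower in the knockout model, a difference of -0.61, and its point had 1 possible place on each array. Of all expressed genes, 18.8% lay farther apart. Cdkn1c, which encodes p57 and is an imprinted gene, read 59.0 in the knockout model against 49.9 in the wildtype. Both values lay just above the expression threshold, where background compresses a difference, and the difference of 0.24 was smaller than that of 52.8% of expressed genes.

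Cdkn1a, which encodes p21, the inhibitor most directly under p53, could not be given a direction. Its knockout value had 1 possible place, 2252. Its wildtype value was either 3325, with a probability of 0.921, or 332.5, with a probability of 0.0787. With the first, the knockout model read 1.48-fold lower (difference -0.56), and with the second 6.77-fold higher (2.76). The likelier pair missed the minimum of 0.95, so Cdkn1a was left out of all counts.

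The Ink4 genes Cdkn2a and Cdkn2b, which are neighbours on chromosome 4, both read higher in the knockout model at their likeliest places. Cdkn2a read 425 in the knockout model against 206 in the wildtype, 2.06-fold higher (difference 1.05), and 6.49% of expressed genes lay farther apart. This rests on a probability of 0.965 for the place of its knockout value. The other possible place gave 42.5 in the knockout model, 4.85-fold lower (difference -2.28), with a probability of 0.0348. Cdkn2a fell below the minimum and became undecided with a minimum of 0.99, with bins of 0.5 log2 (0.934) and without a weight for numerical precision (0.926). Quantile normalization (difference 0.997) and an added 16 (0.99) put it just under 2-fold without turning its direction.

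Cdkn2b, which encodes p15, an inhibitor known to be induced by TGF-beta, read 383 in the knockout model against 245 in the wildtype. It was 1.56-fold higher (difference 0.64), and 17.1% of expressed genes lay farther apart. A second place for its wildtype value, 24.5, had a probability of 4.474e-06, and Cdkn2b read higher in the knockout model at either place. Cdkn2c, which encodes p18, read 82.7 in the knockout model against 80.2 in the wildtype. Its difference of 0.04, with 1 possible place, was smaller than that of 90.8% of expressed genes. The remaining Ink4 gene, Cdkn2d, which is no member, read 100.0 in the knockout model against 87.2 in the wildtype and was under 2-fold.

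Cdkn2a makes 2 unrelated proteins from separate start sites, the CDK inhibitor p16 (Ink4a) from the downstream start and Arf, which binds Mdm2 and so protects p53, from the upstream start. The 1 probe set gives a single value for the gene, so these data did not separate the transcripts. The start regions are shown because this is the member at least 2-fold apart and because its neighbour Cdkn2b read higher too. They are the 250 bases before each start site on the minus strand, from the RefSeq promoter table of build GRCm38.p6, with matches on either strand to a GC box (GGGCGG) or to an E2F motif (TTTCCCGC, TTTCGCGC, TTTGCCGC or TTTGGCGC) in capitals.
Cdkn2a, upstream start (Arf), chr4:89294620-89294869: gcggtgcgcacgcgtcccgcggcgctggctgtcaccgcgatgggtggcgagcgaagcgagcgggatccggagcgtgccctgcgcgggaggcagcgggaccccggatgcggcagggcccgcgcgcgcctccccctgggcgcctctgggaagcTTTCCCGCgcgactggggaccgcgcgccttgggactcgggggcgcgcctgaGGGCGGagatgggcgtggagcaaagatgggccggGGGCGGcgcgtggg
Cdkn2a, downstream start (Ink4a), chr4:89282193-89282442: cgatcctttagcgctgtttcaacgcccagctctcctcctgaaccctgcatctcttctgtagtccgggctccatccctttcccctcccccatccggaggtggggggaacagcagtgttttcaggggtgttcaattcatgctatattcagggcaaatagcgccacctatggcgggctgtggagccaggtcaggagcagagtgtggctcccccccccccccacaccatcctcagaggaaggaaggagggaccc
Cdkn2b, chr4:89311033-89311282: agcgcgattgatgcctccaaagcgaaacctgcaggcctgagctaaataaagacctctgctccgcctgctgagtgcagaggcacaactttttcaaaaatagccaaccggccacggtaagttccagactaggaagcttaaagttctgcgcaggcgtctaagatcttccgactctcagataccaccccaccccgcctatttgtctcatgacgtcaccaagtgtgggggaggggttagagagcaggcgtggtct

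The start sites of Cdkn2a lie 12.4 kb apart, and that of Cdkn2b lies 16.4 kb upstream of the first. The Arf window was the richest in G and C, with 78.4%, against 60.0% at the Ink4a start, 53.6% at Cdkn2b and a median of 52.4% over 32851 windows of the same length. The GC box, the known binding motif of Sp1, occurred at 2 positions in the Arf window, at bases 48 to 43 and 14 to 9 before the start, and at 0 in the other windows. Of all windows, 32.7% held it. The E2F motif occurred once in the Arf window, as TTTCCCGC at bases 99 to 92 before the start, in 0 of the other windows and in 1.86% of all windows. TATAAA, the TATA box (12.4% of all windows), was found in none of the 3 on either strand. These letters describe the windows and say nothing of which factor was bound.

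**Figure D2:**
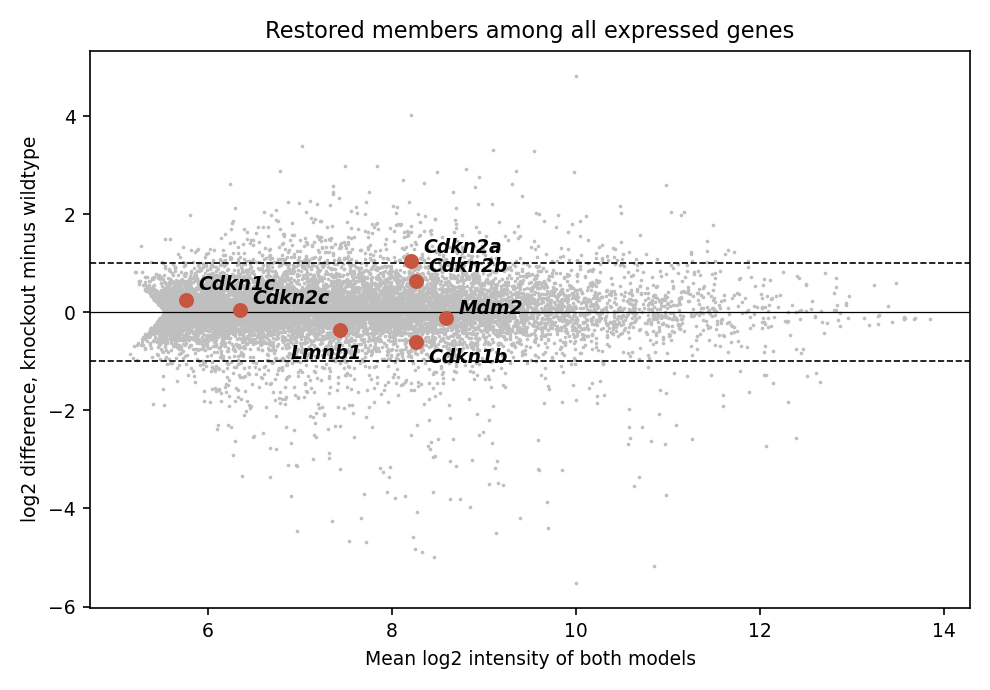
Log2 difference (knockout minus wildtype) against mean log2 intensity for the 12719 expressed genes (grey), with the 7 restored members in red and dashed lines at 2-fold. Cdkn2a lies at 1.05, just past the upper line, and the other 6 lie between -0.61 and 0.64, within the body of the grey points.

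Mdm2 was close to level in the models. It read 371 in the knockout model against 401 in the wildtype, a difference of -0.11, and 76.6% of expressed genes lay farther apart. Its second possible pair, with 40.1 in the wildtype model, had a probability of 0.003931. Since Mdm2 is itself a gene that p53 activates, other p53 targets were set beside it. Of 30 expressed targets with a restored point, 0 reached 2-fold in the higher direction and 1 in the lower, against 3.81% and 3.31% of all expressed genes. Their median was 0.07, with 16 above 0 and 14 below. At least 1.5-fold apart were 10 of the 30, 2 higher and 8 lower, against 19.8% of all expressed genes in either direction. Sesn1 and Plk3 were undecided.

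The p53 target at least 2-fold lower was Epha2, an ephrin receptor gene also known for its expression in the epidermis, with 175 in the knockout model against 525 in the wildtype (3.00-fold). Perp, which is both a p53 target and a desmosome gene of stratified epithelia, read 4366 against 7310, a difference of -0.74. The kinase gene Plk2 (559 against 1052, difference -0.91) and Phlda3, which encodes an inhibitor of Akt (536 against 910, difference -0.77), also read lower under 2-fold. In the other direction, Ccng1, the cyclin G1 gene and a standard p53 target, read 4773 against 3269, a difference of 0.55. The death receptor gene Tnfrsf10b read 674.5 in the knockout model against 342 in the wildtype, 1.97-fold higher. Trp53inp1 (645 against 544) and Ei24 (2153 against 1773) differed by 0.24 and 0.28.

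Among the genes that act on p53, 0 of 16 expressed ones were at least 2-fold apart, a share near the 3.81% higher and 3.31% lower of all expressed genes, with a median of 0.10. Ppm1d, a phosphatase gene that switches off p53 signalling, read 346 in the knockout model against 542 in the wildtype (difference -0.65). The kinase gene Hipk2 read 930.0 against 655 (difference 0.51), and the deubiquitinase gene Usp7, whose product stabilizes Mdm2, read 828 against 1107 (difference -0.42). The coactivator genes Ep300 (998 against 935) and Crebbp (1400 against 1469) were nearly level. Trp63, Mdm4 and Sirt1 were undecided.

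Lmnb1 read 153 in the knockout model against 196 in the wildtype. This was 1.28-fold lower, a difference of -0.36, and 37.9% of expressed genes lay farther apart. Its other possible pair had a probability of 0.000103. A list of 15 other genes, all restored and expressed, held nuclear lamina and lamin-binding genes together with the chromatin protein genes Hmgb1 and Hmgb2. Of the 15, 0 were at least 2-fold apart (3.81% higher and 3.31% lower over all expressed genes). Below 0 were 12, among them Hmgb1 (difference -0.20) and Hmgb2 (-0.42), and 3 were above, with a median of -0.21. Tmpo, the gene of the lamina-associated polypeptide 2, read 382 against 546 (difference -0.51), Lbr, the lamin B receptor gene, 409 against 474 (difference -0.21) and Banf1 1968 against 2123 (difference -0.11). Lemd2 (609 against 451) and Zmpste24, the gene of the protease that matures lamin A (665 against 553), read higher, under 2-fold. Syne1, named after its values were seen, lay farthest from 0. It read 267 against 148 (difference 0.85) on 1 of its 58 restored probe sets.

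The genes on which the CDK inhibitors act included 18 expressed G1 cyclin, CDK, Rb and E2F genes. Of these, 0 were at least 2-fold apart, near the 3.81% higher and 3.31% lower of all expressed genes, and their median was 0.27, against 0.04 over all. The genes farthest apart in each direction, named after their values were seen, were Rb1, the retinoblastoma gene, with 353 in the knockout model against 576 in the wildtype (difference -0.71), and Cdk7, a CDK-activating kinase gene, with 377 against 241 (difference 0.64). Cdk4, the kinase bound by Ink4 proteins, read 3152 in the knockout model against 2637 in the wildtype (difference 0.26), and Cdk6, the other such kinase, read 505 against 653 (difference -0.37). The cyclin D1 gene Ccnd1 read 1319 against 1080 (difference 0.29), and Myc read 761 against 776. Ccnd2, Cdk2, Rbl1 and Cks1b were undecided.

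Of 32 expressed genes of S phase and mitosis, 0 were at least 2-fold apart, near the 3.81% higher and 3.31% lower of all expressed genes. At least 1.5-fold apart were also 0, against 19.8% of all expressed genes, and the median was -0.09. These are E2F and DREAM targets, which fall when cells leave the cycle. Among the 32, the proliferation marker Mki67 lay farthest from 0, with 449 in the knockout model against 655 in the wildtype (difference -0.54). Pcna, the DNA polymerase clamp gene, read 1687 against 1683, the helicase gene Mcm7 349 against 351 and the cyclin A2 gene Ccna2 494 against 457. Ccnb2, Cdk1, Birc5, Mcm2 and Mcm6 were undecided and are not in these counts. At its likeliest place, with a probability of 0.9449, Birc5 read 126.3 against 79.4 (difference 0.67), which is past 1.5-fold.

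The known regulators of the Cdkn2a-Cdkn2b locus included 18 expressed genes, of which 1 (5.56%) reached 2-fold in each direction, near the 3.81% and 3.31% of all expressed genes, and their median was -0.05. Tbx3, a T-box repressor of the Arf transcript, read 624 in the knockout model against 156 in the wildtype, 4.00-fold higher. Id1, an inhibitor of the Ets and E proteins that activate Ink4a, read 85.2 against 192, 2.25-fold lower. Ezh2, the Polycomb methyltransferase gene that holds the locus silent in young cells, read 510 against 809 (difference -0.67). The demethylase gene Kdm6b, which opposes it, read 364 against 608 (difference -0.74), and the Polycomb cofactor gene Jarid2 422 against 743 (difference -0.82). Higher in the knockout model, under 2-fold, were Hmga2 (1062 against 706, difference 0.59), Ets2 (1777 against 1357, difference 0.39) and Rnf2 (900 against 791, difference 0.19).

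**Figure D3:**
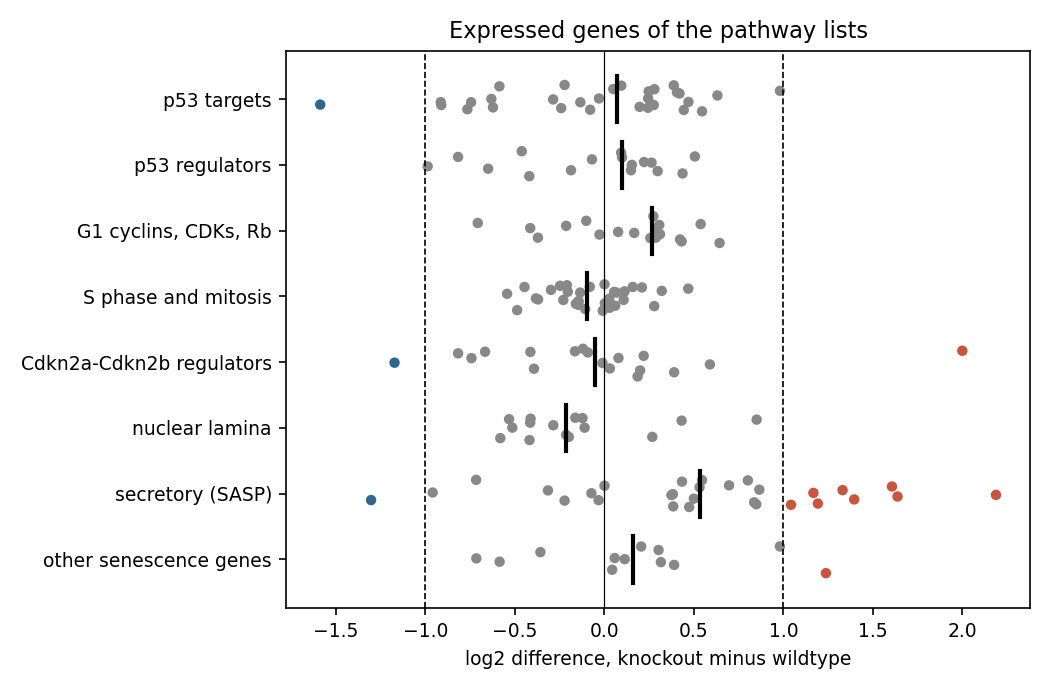
Log2 difference (knockout minus wildtype) of each expressed, restored gene of 8 lists, with members left out. Black bars are medians, dashed lines mark 2-fold, and points at least 2-fold higher are red and lower ones blue. Genes of S phase and mitosis stay inside the lines, whereas the secretory list has 8 points beyond the upper line and 1 beyond the lower.

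Secreted factors of the senescence-associated secretory phenotype (SASP) made up the list with the most genes at least 2-fold apart of the 8 pathway lists. Of 29 expressed genes, 8 (27.6%) reached 2-fold in the higher direction and 1 (3.45%) in the lower, against 3.81% and 3.31% of all expressed genes. The median was 0.53, and the share that was lower was near that of all genes. The list was chosen with earlier results of these data known, and it also holds many inflammatory and fibroblast products. Tnfrsf11b, the osteoprotegerin gene, read 342 in the knockout model against 75.0 in the wildtype (4.56-fold), and the growth factor gene Fgf7 338 against 134 (2.52-fold). The chemokine gene Ccl7 read 1706 against 548 (3.11-fold) and Cxcl2 270.1 against 103 (2.63-fold). Among the matrix proteases, Mmp9 read 197 against 64.6 (3.05-fold), while Mmp13 was lower, with 3713 against 9158 (2.47-fold). Il1a, an upstream cytokine of the phenotype, read 2536 against 1793 (difference 0.50), and the chemokine gene Cxcl1 964 against 594.5 (difference 0.70), both under 2-fold. Il6 (38.5 against 39.9) and Il1b (34.0 against 36.1), other defining cytokines, named after their values were seen, lay below the expression threshold in both models. A further 8 genes were undecided, among them Ccl2, Mmp3 and Timp1.

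Of 12 other expressed genes used to mark senescent cells, 1 (8.33%) reached 2-fold in the higher direction, against 3.81% of all expressed genes, and 0 in the lower, and the median was 0.16. Il1r1, the receptor gene for interleukin-1, read 3739 in the knockout model against 1585 in the wildtype (2.36-fold). Gpnmb, a membrane glycoprotein gene, read 7331 against 7043, the histone variant gene Macroh2a1 1257 against 1219, and Cd9 927 against 1523 (difference -0.71). Tnfrsf10b is counted here as well as among the p53 targets. Plin2 and Bhlhe40 were undecided and are not in these counts. At their likeliest places, Plin2 differed by 1.045 (probability 0.9142), which is past 2-fold, and Bhlhe40 by -0.66 (probability 0.9391).

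The cell type markers also differed between the models, and in bulk RNA fewer cells of a type and less RNA per cell cannot be told apart. Of 15 expressed keratinocyte markers, 7 (46.7%) reached 2-fold in the lower direction, against 3.31% of all expressed genes, and 0 in the higher. Their median was -0.98, and they had a summed intensity of 21669 against 46952. The basal keratin gene Krt14 read 4076 against 9538 and the desmoplakin gene Dsp 2744 against 7469. Krt16 and Trp63 were undecided. Of 12 expressed fibroblast markers, 5 (41.7%) reached 2-fold in the higher direction, against 3.81% of all expressed genes, and 0 in the lower. Their median was 0.92, and the 14 restored markers had a summed intensity of 17860 against 8694. Lum (24.6 against 30.9) and Fap (29.0 against 36.0), also in that sum, lay below the threshold in both models and read lower in the knockout model. Fn1 read 2910 against 712 and Col6a2 599 against 166. Col6a1, Pdgfrb and Prrx1 were undecided. The part of these cell types in the differences of Cdkn2a, Cdkn2b, Cdkn1b and the secretory genes was not tested.

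Markers of other cell types were mostly low. Sums here cover all restored markers, whether expressed or not. The 8 melanocyte markers summed to 1429 against 592, with Mlana at 705 against 109 and Mitf at 464.5 against 215. Pmel (69.2 against 56.5) and Kit (50.3 against 46.1) were under 2-fold, and Sox10 read lower (51.3 against 66.4). Tyr, Tyrp1 and Dct lay below the threshold in both models. The 7 endothelial markers summed to 326 against 282, with Kdr at 87.4 against 36.1 and Tie1 at 54.1 against 46.3, both above the threshold in the knockout model alone, and Pecam1 and Cdh5 were below the threshold in both. Of 8 restored leukocyte markers, Cd14 (551 against 240.2) and Cd68 (861.5 against 1161) were expressed, and the sum of all 8 was 1611 against 1619. The 5 restored smooth muscle markers summed to 251 against 260.

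**Figure D4:**
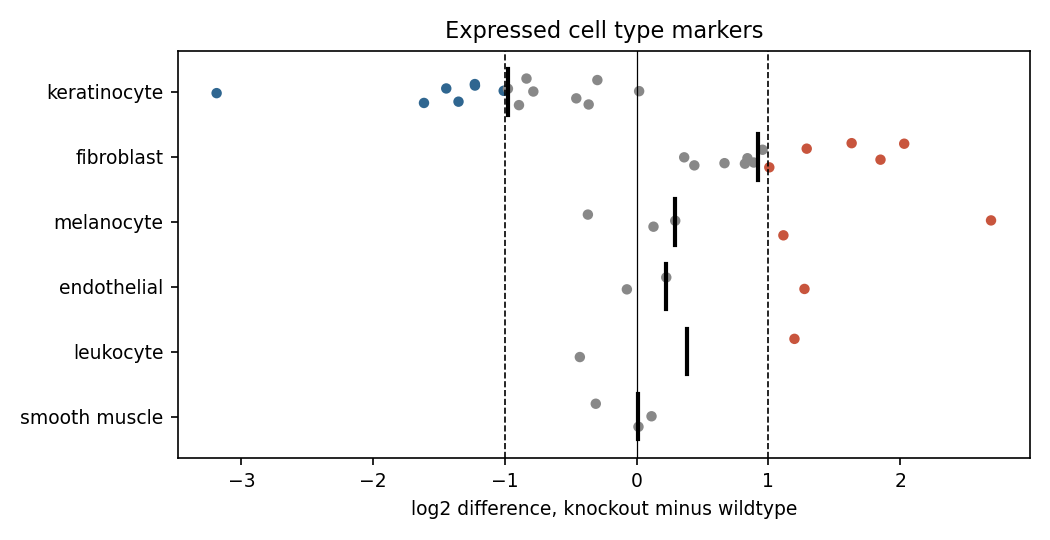
Log2 difference (knockout minus wildtype) of each expressed, restored marker of 6 cell types, with medians as black bars and dashed lines at 2-fold. Keratinocyte markers lie mostly to the left, with a median of -0.98, and all 12 expressed fibroblast markers lie above 0, with a median of 0.92.

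Repeated passaging applies to both models alike in the labels, and no earlier passage was profiled. The values therefore compare the genotypes after passaging and do not show how any member changed with it.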

How the data were processed

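The authors deposited 1 value per probe set and array, an intensity on a linear scale, after labelling with the Affymetrix WT kits per the labels. Scanner software, probe set summary and normalization were not given in the sources used here. Of 67586 values, 67457 had lost their decimal point. The other 129 had at most 2 decimals, so lost points were taken to stand before at least 3. A place was possible if the number was a single-precision number in its shortest decimal form, was 2 to the power of a single-precision exponent, and lay between 18 and 20000. Both arrays had just 1 possible place for 21121 of 33793 probe sets. For the rest, pairs of places were weighted by the step of the exponent and by the joint distribution of level and size of difference (bins of 0.25 log2, both directions alike, 25 rounds of expectation maximisation). Pairs reaching a probability of 0.95 were accepted. This restored 31890 probe sets (94.4%), with 49.5 misplaced ones expected among them, and left 1903 undecided.

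The annotation gave exactly 1 symbol to 23521 probe sets and several to 1814, and 8458 were unnamed here. Where a gene had several probe sets, that with the highest mean represented it. Among the named genes of the lists this applied to Rb1, Tmpo, Hmgb1, Kdm6b, Cd9 and Syne1, whose other probe sets are not given here. No normalization was added, since the array medians were 46.3 (knockout) and 46.7 (wildtype). Named genes are the members, Itih5 and, per list, up to 6 genes at least 2-fold apart and up to 6 of the highest-level others. Exceptions are Cdkn2d, Rb1, Cdk7, Hmgb2, Syne1, the neighbours of Cdkn2a, undecided genes, genes below the threshold and Cd14, Cd68 and Mlana as markers. The members and lists were chosen with earlier results of these data known. Python 3.11.15, numpy 2.4.6 and pandas 2.3.3 were used. Alternatives changed normalization, an added value of 16, the filter, the probe set rule, the minimum probability and the fold. The number of arrays limits the precision.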

Additional observations from a re-analysis of the deposited data

How the results depend on the processing

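Of 75 member differences under alternatives, 73 kept their side of 2-fold and moved by at most 0.2 log2, and 0 reversed. Only quantile normalization, centring on the array medians and the added 16 could move a member difference. The other alternatives kept its restored pair and its 1 probe set, and so repeated the main value wherever the member was kept. These repeats are counted among the 73. Where Cdkn2a became undecided it has no difference and is not among the 75, and no alternative used its other place (-2.277). Cdkn2a was under 2-fold with quantile normalization (0.997) and with 16 added (0.99). The count of members at least 2-fold higher, 1 in the main analysis, was 0 with quantile normalization, with 16 added, at 3-fold, with 1 possible place only, with a minimum probability of 0.99, and, in alternatives chosen after seeing the data, without the step weight and with bins of 0.5. At 1.5-fold it was 2, with 1 lower. All 72 list medians moved by at most 0.2 log2 and stayed under 2-fold, and those of p53 regulators (-0.069 to 0.109) and locus regulators (-0.106 to 0.011) spanned 0. At 1.5-fold the counts of higher and lower genes were 2 and 8 of 30 (p53 targets) and 0 and 3 of 16 (p53 regulators). They were 1 and 1 of 18 (G1 genes), 2 and 4 of 18 (locus regulators) and 1 and 0 of 15 (lamina). The secretory list had 13 and 3 of 29, and the other senescence genes 2 and 1 of 12. Over all expressed genes, 19.8% were at least 1.5-fold apart in either direction. The share in each direction is not given here, so these counts have no matching background. At 3-fold the locus regulators had 0 lower, the secretory list 3 higher and 0 lower, and the other senescence genes 0 higher. With 1 possible place only, 4 secretory genes and 0 locus regulators were higher, since fewer genes remained. At the likeliest places, 2 p53 targets and 2 secretory genes were lower, and 12 secretory genes (8 in the main analysis), 1 lamina gene and 2 other senescence genes were higher. Quantile normalization gave 2 lower secretory genes, where the cause was not tested. For the alternatives other than 1.5-fold, no share over all expressed genes is given here to set beside the counts. No paired analysis was possible because there is 1 array per genotype, and so no array could be left out. Differences near a shift of the point by 1 digit can be hidden where several places are possible.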

Other observations

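The genes around Cdkn2a and Cdkn2b were looked up in RefSeq gene order after the values of both were seen. The nearest protein-coding gene on the side of Cdkn2a, Mtap, which encodes an enzyme of methionine salvage, was undecided. At its likeliest place, with a probability of 0.9155, it read 593 in the knockout model against 311 in the wildtype. On the other side Dmrta1 lay below the expression threshold in both models, with 24.8 and 25.7. The next gene beyond it, Zfp352, read 58.5 against 41.1, below the threshold in the wildtype model.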
